A study of Mus musculus with 8 samples.

Results

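The interaction of the losses of Aiolos and OBF-1 was examined over 9805 of the 22626 probe sets tested on the array (43.3%), those with a mean intensity of at least 100 in at least 1 of the 4 genotypes. The interaction of a probe set is the log2 change against wild type in double-mutant cells minus the log2 changes in both single-mutant cells. It is also the effect of OBF-1 loss in cells without Aiolos minus the effect of OBF-1 loss in cells with Aiolos. A value of 0 means that the single changes multiply, and the intensity this gives for the double-mutant cells is called the level of no interaction. A positive interaction is a double-mutant level above it, and a negative interaction a double-mutant level below it. At the threshold of 100 the members came as near as 100 and the probe sets left out as near as 99.999, while 8665 members reached 100 in every genotype and 394 in a single genotype.

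Expression had been measured on MOE430A GeneChips in 4 genotypes of 7 week old Bl6 mice, namely WT, OBF-1-/-, Aiolos-/- and Aiolos-/-/OBF-1-/-, with 2 arrays of each. The deletions were present in all cells of the mice, so every B cell stage before the one analysed had also developed without the factor or factors. According to the methods of the study, B220+ CD25+ pre-BII cells were sorted from marrow pooled from 8 mice of each genotype, in 2 independent pools per genotype. Whether each pool held 8 mice is not clear from them. The sample labels instead call the source bone marrow of a single mouse, and the methods were followed here. The array values are intensities after robust multi-array averaging (RMA), on a linear scale. WT and OBF-1-/- arrays had been washed on fluidics station 2, and Aiolos-/- and double-mutant arrays on station 1. A constant log2 shift between the stations drops out of the interaction, which compares OBF-1 loss within station 1 with OBF-1 loss within station 2. On each station the arrays of cells with OBF-1 were on wash modules 1 and 2 and those of cells without OBF-1 on modules 3 and 4. An effect of OBF-1 loss therefore cannot be told apart from one of the module. An effect of the wash module that differed between the stations cannot be told apart from the interaction.

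OBF-1, the product of Pou2af1, binds Oct-1 and Oct-2 on the octamer element and is a coactivator of transcription in B cells. Aiolos, the product of Ikzf3, is a zinc finger factor of the Ikaros family, which can silence as well as activate genes in lymphocytes. Pre-BII cells have passed the pre-B cell receptor checkpoint, at which the immunoglobulin heavy chain is paired with the surrogate light chain, and then silence the surrogate light chain genes and rearrange the light chain genes.

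Transcripts of the pre-BII stage were at high levels on these arrays. Il2ra, which encodes the CD25 used for sorting, had mean intensities of 421 in WT, 637 in OBF-1-/-, 478 in Aiolos-/- and 664 in double-mutant cells, and Rag1, a recombinase subunit, 3041, 3042, 2743 and 2674. Of the 8 pre-BII markers among the members none had a called interaction, and the median of their interactions was -0.07. Pax5 was measured below 100 in every genotype. Granulocyte transcripts were high in every genotype, with S100a9 between 5990.4 in WT and 7228 in OBF-1-/- cells. The summed intensity of the 14 granulocyte and monocyte markers was 23890.5 to 24127.5 in WT, 29335 to 33258 in OBF-1-/-, 27146.5 to 27949 in Aiolos-/- and 29495 to 30147 in double-mutant arrays. In a sorted population fewer cells of a type and less RNA per cell cannot be told apart.

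The interaction was called, at a Benjamini-Hochberg adjusted p under 0.05 from limma, for 30 members, that is 0.306% of them. They represented 24 genes, 18 with a positive and 6 with a negative interaction. Over all probe sets tested 42, or 0.186%, were called, 0.155% positive and 0.0309% negative. Of the 30 called members 17 reached an intensity of 100 in every genotype and 8 in a single genotype, for 7 of them the double mutant. These 7 were members only through their double-mutant level, which also makes the interaction positive. Serpinf1 was a member only through its Aiolos-/- level, which also makes its interaction negative. The share called among members, and its positive side, thus depend in part on how members were chosen. They cannot be compared directly with the shares over all probe sets. At an unadjusted p under 0.05 there were 1027 members, or 10.5%, against 11.8% of all probe sets. The interactions of the members had a median of 0.05, a range from the 5th to the 95th percentile of -0.29 to 0.41, and a median standard error of 0.14. Over all probe sets tested the median was -0.033, so the positive lean of the members did not extend to the whole array. Among the members 340 had an interaction of at least 0.5 in either direction, 255 of them positive, and 31 of at least 1. When a single array was taken from each genotype, all 16 choices gave the same sign for all 30 called members and for 26% of all members (27.2% of all probe sets tested). The 30 were chosen for interactions that were large against their error in these same arrays. Their agreement in sign was thus largely given in advance and is no separate evidence.

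The comparisons from which the interaction is made called more probe sets. Against WT, 302 members (3.08%, and 1.84% of all probe sets) were called in Aiolos-/-, 361 (3.68% and 2.09%) in OBF-1-/- and 1484 (15.1% and 8.57%) in double-mutant cells. These comparisons share the WT arrays. Between double-mutant and Aiolos-/- cells, a comparison that does not use the WT level, 509 members (5.19% and 2.95%) were called. The changes of Aiolos-/- and double-mutant cells against WT, and hence the classes below that use them, cannot be told apart from the fluidics station, which differed between these groups. OBF-1 loss was compared within a station but cannot be told apart from the wash module, since arrays with and without OBF-1 were on different modules.

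The 30 were sorted by how the changes against WT combined, counting a change of at least 0.5 on the log2 scale as an effect. In 12 only the double mutant showed an effect, in 9 the double-mutant change exceeded the sum of the single changes (synergy), and in 5 it lay between 0 and that sum (saturation). In 2 an effect of a single deletion was lost in the double mutant, in 1 the single deletions had opposite effects, and in 1 all changes were under 0.5. The same sorting of all 340 members with an interaction of at least 0.5 gave 62, 48, 48, 57, 4 and 119 in these classes, and in a further 2, both of Cap1, the double-mutant change was opposite to the sum. The choice of members favours rises in the double mutant, since a level of 100 there alone was enough. Called members of this kind were those of Enpep, Srfbp1 and Utrn, Rapgef3 1424471_at and Tsc22d1 1454758_a_at. In the synergy class they were those of Rasa4 and St3gal6.

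**Figure D1:**
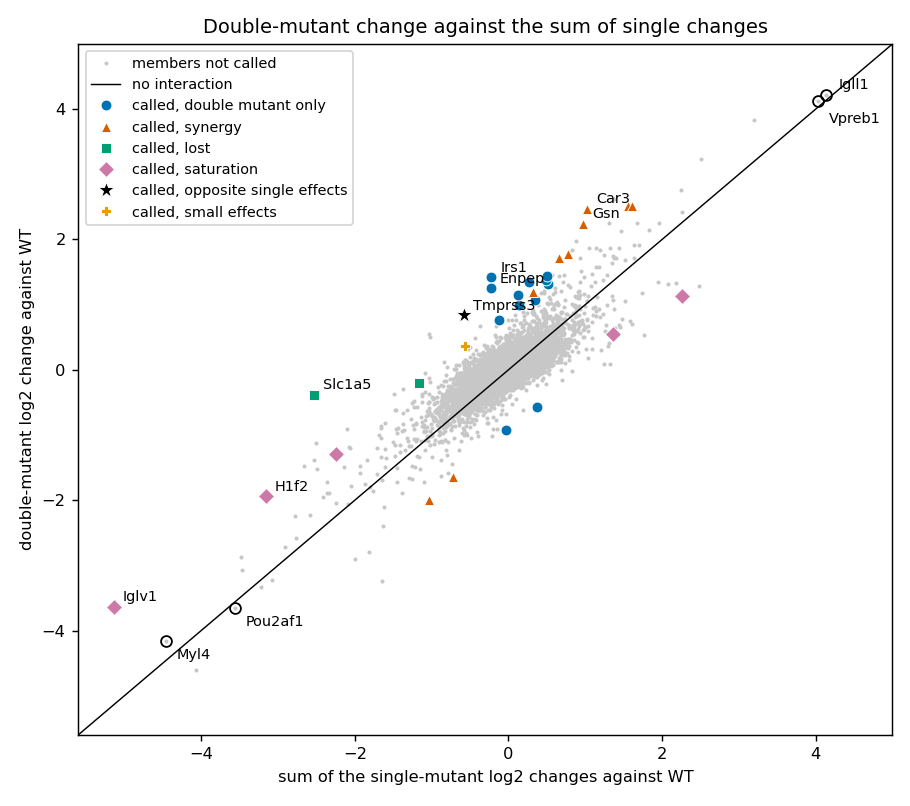
Each point is a member, with the sum of its 2 single-mutant log2 changes against WT on the horizontal axis and its double-mutant log2 change on the vertical axis. Points on the line have no interaction; the 30 called members are coloured by class, and Slc1a5 and Irs1 lie farthest above the line among them. Open circles mark Igll1, Vpreb1, Myl4 and Pou2af1, which lie near the line.

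Of the 9 genes with an effect only in the double mutant, Irs1, Enpep, Rapgef3, Tsc22d1, Srfbp1, Utrn and Itgav rose and Nsg2 and Col5a3 fell. Irs1, the insulin receptor substrate that couples receptors to phosphoinositide 3-kinase, had intensities of 443 and 399 in the WT arrays, 381 and 388 in OBF-1-/-, 385 and 403 in Aiolos-/- and 967 and 1307 in the double-mutant arrays. Both double-mutant arrays were above every other array, and the remaining 6 overlapped. The interaction was 1.64 (standard error 0.18, adjusted p = 0.00421), which puts the double-mutant level 3.12-fold above the level of no interaction of 360.2. Enpep, the glutamyl aminopeptidase known on early B-lineage cells as BP-1, was low in 6 arrays, at 37.3 to 49.7, and reached 90.1 and 131 in the double mutant. Its interaction was 1.48 (standard error 0.23, adjusted p = 0.0259), and the 2 double-mutant arrays differed more from each other than the other 6 arrays did.

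Rapgef3 encodes Epac1, a cyclic AMP-gated activator of the small GTPase Rap1. Its probe set 1424471_at had 75.3 and 74.2 in WT, 83.4 and 102 in OBF-1-/-, 79.8 and 66.5 in Aiolos-/- and 193 and 186 in double-mutant arrays, an interaction of 1.08 (standard error 0.17, adjusted p = 0.0259). All 4 of its member probe sets had positive interactions, from 0.44 to 1.08, and 2 of them were called. Tsc22d1, a leucine zipper protein gene induced by TGF-beta, was called in all 3 of its member probe sets, with interactions of 1.03, 0.93 and 0.79. In the first, 1454971_x_at, the 6 other arrays lay between 249.8 and 287 and the double-mutant arrays at 556 and 578 (adjusted p = 0.0151).

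Itgav, the integrin alpha V chain, had 291 and 282 in WT, 339 and 354 in OBF-1-/-, 297 and 303 in Aiolos-/- and 584 and 621 in double-mutant arrays. Its interaction of 0.73 was the smallest of the 30 in size and the nearest to the threshold (adjusted p = 0.0498). Utrn, which encodes the dystrophin relative utrophin, and Srfbp1, a serum response factor binding protein gene, had interactions of 0.86 and 0.88 (adjusted p = 0.0235 and 0.0259), with double-mutant intensities of 107 to 150.2 against 48 to 90.0 in the other genotypes. For all of these genes the arrays of the double mutant lay above those of every other genotype.

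Nsg2, a vesicle protein gene best known from neurons, had 199 to 228 in the 6 other arrays and 114 and 106 in the double-mutant arrays, an interaction of -0.89 (standard error 0.14, adjusted p = 0.0259). Col5a3, a chain of type V collagen, had 1136 and 1134 in WT, 1527 and 1387 in OBF-1-/-, 1144 and 1155 in Aiolos-/- and 770.4 and 756 in double-mutant arrays. The OBF-1-/- arrays were thus the highest and the double-mutant arrays the lowest, and the interaction was -0.95 (standard error 0.13, adjusted p = 0.0151). OBF-1 loss changed Col5a3 by 0.36 in cells with Aiolos, which did not pass, and lowered it by -0.59 in cells without Aiolos (adjusted p = 0.0726 and 0.00323).

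**Figure D2:**
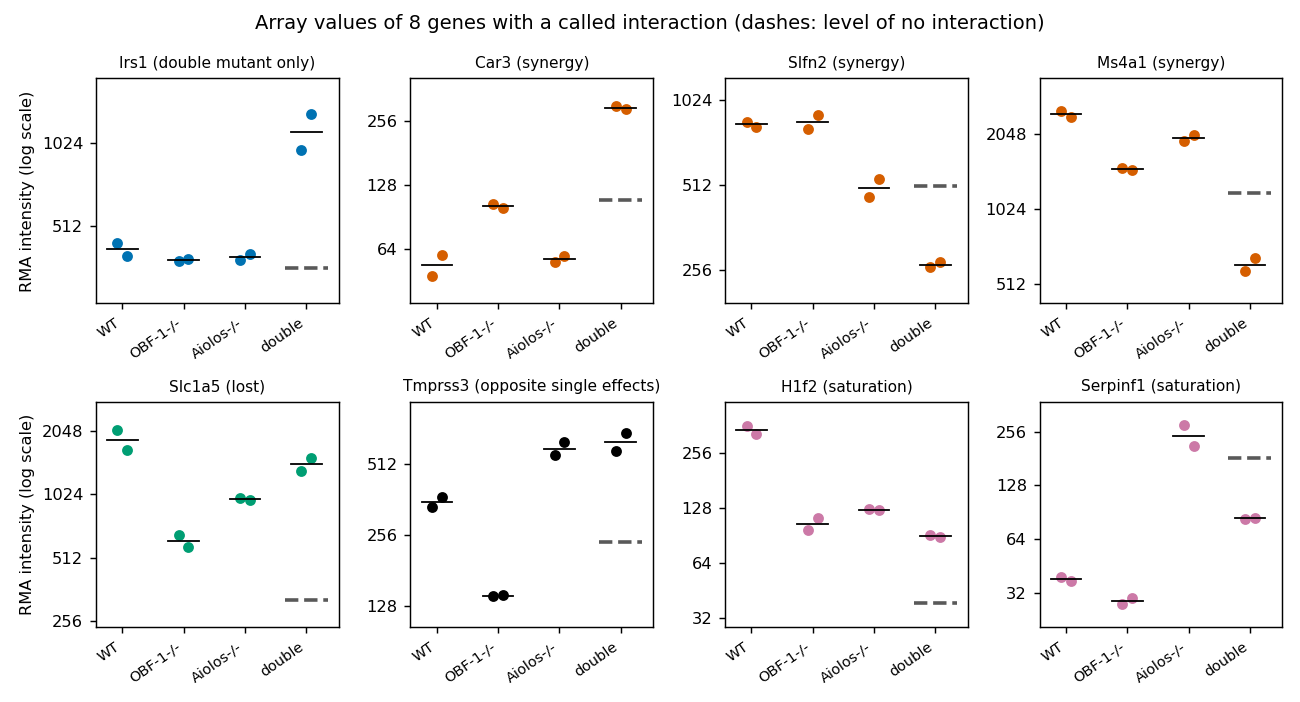
RMA intensity on a log scale in each of the 2 arrays per genotype (points) for 8 genes with a called interaction, with the genotype mean of the log2 values (solid bar) and the level of no interaction for the double mutant (dashed bar). Irs1, Slc1a5, Tmprss3, Car3 and H1f2 lie above the dashed bar and Slfn2, Ms4a1 and Serpinf1 below it.

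In the synergy class Gsn, the actin severing protein gelsolin, was represented by 4 probe sets, all of its member probe sets. The one with the largest interaction, 1437171_x_at, had 178 and 187 in WT, 253 and 309.8 in OBF-1-/-, 234 and 233 in Aiolos-/- and 883 and 845 in double-mutant arrays. The interactions of the 4 ran from 0.91 to 1.27. Car3, a cytosolic carbonic anhydrase, had 47.6 and 60.0 in WT, 104 and 99.2 in OBF-1-/-, 55.3 and 59.2 in Aiolos-/- and 302 and 292 in double-mutant arrays. Its OBF-1 effect was 0.93 with Aiolos and 2.38 without, and the interaction of 1.45 (standard error 0.16, adjusted p = 0.00421) is a 2.72-fold excess over the level of no interaction.

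In Car3 and Rasa4 1 of the single changes against WT was small and did not pass, namely 0.10 for Aiolos loss in Car3 (adjusted p = 0.671) and 0.05 for OBF-1 loss in Rasa4, a gene for a GTPase-activating protein of Ras (adjusted p = 0.893). Rasa4 rose by 0.60 in Aiolos-/- cells and by 1.72 in the double mutant, with 169 and 152 there against 46.4 to 81 in the other arrays, and its interaction was 1.06 (adjusted p = 0.0259). St3gal6, a sialyltransferase gene, was lowest in Aiolos-/- arrays, at 61.9 and 55.2, and highest in the double mutant, at 156 in both arrays. The interaction of this probe set was 0.88 (adjusted p = 0.0259), and the second St3gal6 probe set had 0.71 (adjusted p = 0.26).

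The falling genes with synergy were Ms4a1 and Slfn2. Ms4a1 encodes CD20, a surface protein that appears as B cells mature. It had 2521 and 2379 in WT, 1494 and 1471 in OBF-1-/-, 1911 and 2023 in Aiolos-/- and 580.2 and 650.4 in double-mutant arrays, with no overlap between genotypes. OBF-1 loss lowered Ms4a1 by -0.72 with Aiolos and by -1.68 without, an interaction of -0.95 (standard error 0.13, adjusted p = 0.0177). The second Ms4a1 probe set, at lower intensities, had an interaction of -0.98 that did not pass (adjusted p = 0.254), and in linear units its double-mutant level exceeded the additive one by 31.1.

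Slfn2 encodes a Schlafen protein known from lymphocyte quiescence. Its intensities were 859 and 823 in WT, 807 and 905 in OBF-1-/-, 466 and 539 in Aiolos-/- and 263 and 272 in double-mutant arrays. WT and OBF-1-/- arrays overlapped, whereas the fall in Aiolos-/- cells, -0.75, became -1.65 when OBF-1 was lost as well (interaction -0.93, standard error 0.15, adjusted p = 0.0259). The negative interactions nearest to the threshold among those that did not pass belonged to Iglv1 1430523_s_at (-1.59), Lynx1 (-0.70), Cd2 (-0.63) and Ifi27l2a (-0.75), with adjusted p from 0.0795 to 0.0989. All 4 were lowest in the double mutant, as Cd2, an adhesion receptor, shows with means of 637 in WT, 594 in OBF-1-/-, 319 in Aiolos-/- and 193 in double-mutant cells.

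Promoters were read from RefSeq sequence (GRCm38.p6), taking the 250 bases before each start, for the motifs that the factor families bind. On either strand the octamer ATTTGCAT was found in 1.6% of the 32851 promoters searched. It was in 0 of 27 promoters, which belong to 18 of the 24 genes with a called interaction. At so low a share 27 promoters may well hold none, so no conclusion is drawn from the 0. Igll1 and Vpreb1 also had none in this window. The paper reports octamer sites farther upstream of Igll1 that were bound by OBF-1 in a B lymphoma line. They lie outside the window, and not all have the sequence searched here. The Ikaros family core TGGGAA was found in 21.6% of the same promoters and in 4 of the 27 (14.8%), which belong to Gsn, Slfn2 and St3gal6. A match is a description of the sequence and not a binding site. The 2 Gsn windows with a match, at chr2:35256109-35256358 and chr2:35282130-35282379 on the + strand, and that of Slfn2, at chr11:83064862-83065111 on the + strand, are given because these genes stand for synergy upwards and downwards. Each is written 5′ to 3′ with the core, or its reverse complement TTCCCA, in capitals, which starts 217, 89 and 145 bases before the gene start.
Gsn, upstream start: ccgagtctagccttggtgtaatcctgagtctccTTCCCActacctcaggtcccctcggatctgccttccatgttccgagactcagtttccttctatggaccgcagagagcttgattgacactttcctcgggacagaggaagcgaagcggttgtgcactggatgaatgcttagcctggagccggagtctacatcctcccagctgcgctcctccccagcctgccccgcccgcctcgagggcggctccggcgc
Gsn, downstream start: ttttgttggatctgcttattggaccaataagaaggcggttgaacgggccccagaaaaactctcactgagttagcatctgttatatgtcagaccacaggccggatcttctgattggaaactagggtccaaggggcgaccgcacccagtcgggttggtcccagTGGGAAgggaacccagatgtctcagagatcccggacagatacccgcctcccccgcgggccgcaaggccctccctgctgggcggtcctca
Slfn2: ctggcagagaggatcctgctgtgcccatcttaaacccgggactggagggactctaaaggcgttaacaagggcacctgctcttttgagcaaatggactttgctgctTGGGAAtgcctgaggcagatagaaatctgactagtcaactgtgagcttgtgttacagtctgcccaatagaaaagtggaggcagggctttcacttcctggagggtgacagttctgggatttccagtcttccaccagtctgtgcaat

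The largest of the 30 interactions was that of Slc1a5, the glutamine and neutral amino acid transporter ASCT2, and it was an effect lost in the double mutant. Slc1a5 had 2083 and 1660.5 in WT, 653 and 577 in OBF-1-/-, 986 and 967 in Aiolos-/- and 1327 and 1532 in double-mutant arrays. The double-mutant arrays thus lay below WT and above both single mutants. Against WT the change was -1.60 in OBF-1-/- cells and -0.93 in Aiolos-/- cells (adjusted p = 1.99e-05 and 0.00467), and -0.38 in the double mutant (adjusted p = 0.0821). OBF-1 loss lowered Slc1a5 in cells with Aiolos and raised it by 0.55 in cells without (adjusted p = 0.0349), and the interaction was 2.14 (standard error 0.17, adjusted p = 0.000517).

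Banp, a nuclear DNA-binding protein gene, had the same pattern at a smaller size. It had 374 and 391 in WT, 270.1 and 289 in OBF-1-/-, 207 and 261 in Aiolos-/- and 319 and 343 in double-mutant arrays, with an interaction of 0.96 (standard error 0.16, adjusted p = 0.0449). AU020206, in which no change against WT reached 0.5, was also lower in both single mutants, at 745 to 893, than in WT, at 988 and 998, and was highest in the double mutant, at 1231 and 1326. Its interaction was 0.92 (standard error 0.13, adjusted p = 0.0151).

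Tmprss3, a membrane serine protease gene, was the called member with opposite single effects. Its intensities were 337 and 372 in WT, 140.3 and 143 in OBF-1-/-, 559 and 631 in Aiolos-/- and 579.7 and 692 in double-mutant arrays. The Aiolos-/- and double-mutant arrays overlapped and lay above WT, and the OBF-1-/- arrays lay below it. OBF-1 loss changed Tmprss3 by -1.32 in cells with Aiolos (adjusted p = 4e-05) and by 0.09 in cells without (adjusted p = 0.728), and the interaction was 1.42 (standard error 0.16, adjusted p = 0.00421).

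Opposite single effects of at least 0.5 were seen in 11 members, each of another gene, and only Tmprss3 among them was called. Slamf9, a receptor of the SLAM family, had means of 384 in WT, 207 in OBF-1-/-, 713 in Aiolos-/- and 244 in double-mutant cells, an interaction of -0.65 (adjusted p = 0.392). Rsph1, a radial spoke protein gene of cilia, had an interaction of -0.16 with means of 99.3, 33.4, 150.3 and 45.6 in the same order. In both, the double-mutant level was nearer to that of OBF-1-/- than to that of Aiolos-/- cells, whereas for Tmprss3 it was nearer to that of Aiolos-/- cells. Cox6a2, a respiratory chain subunit gene, and Arhgap21 were lower in Aiolos-/- and higher in OBF-1-/- than in WT cells and had interactions of -0.40 and 0.28 (adjusted p = 0.362 and 0.479).

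**Figure D3:**
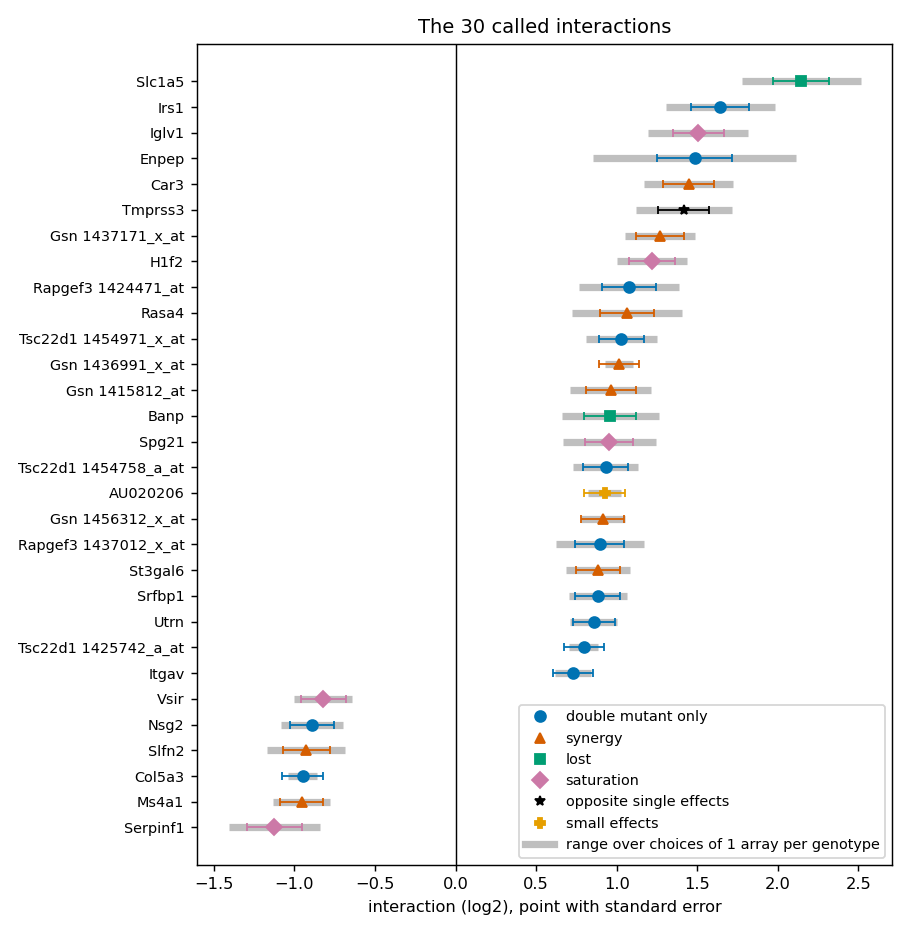
The interaction (log2) of each of the 30 called members with its standard error, sorted by size, with symbols for the classes; the grey bar is the range over the 16 choices of 1 array per genotype. The probe sets of Gsn, Tsc22d1 and Rapgef3 are given singly, and no grey bar reaches 0. The 30 were chosen by their interaction in the same arrays, which makes a bar that reaches 0 unlikely.

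Saturation was called for 5 members. In Iglv1 1427292_at, a probe set for a lambda light chain variable segment, the arrays had 697 and 655 in WT, 76 and 62.8 in OBF-1-/-, 184 and 192 in Aiolos-/- and 58.2 and 51 in double-mutant cells. The level of no interaction was 19.2, below the 25th percentile of the arrays, which was 24.8 to 26.7. The interaction was 1.50 (standard error 0.16, adjusted p = 0.00421). The other Iglv1 probe set, 1430523_s_at, went the other way, at -1.59 (adjusted p = 0.0795), and so did a probe set shared by Iglc1 and Iglv1, at -0.55 (adjusted p = 0.406). The probe sets for the lambda light chain thus disagreed in sign, and the OBF-1-/- arrays of 1430523_s_at lay far apart, at 1614 and 874.

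H1f2, the linker histone H1.2, had 363 and 327 in WT, 97.9 and 113 in OBF-1-/-, 128 and 125 in Aiolos-/- and 91 and 88.7 in double-mutant arrays of probe set 1436994_a_at. The double-mutant arrays were below those of both single mutants but above the level of no interaction of 38.6 (interaction 1.22, standard error 0.14, adjusted p = 0.0065). The brighter H1f2 probe set, with a level of no interaction of 347, had a like interaction of 1.15 that did not pass (adjusted p = 0.108). Spg21, which encodes maspardin, had 619.7 and 568 in WT, 209.9 and 230.2 in OBF-1-/-, 326 and 351 in Aiolos-/- and 261 and 226 in double-mutant arrays. Its OBF-1-/- and double-mutant arrays overlapped, and the interaction was 0.95 (standard error 0.15, adjusted p = 0.0259).

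In the opposite direction, Serpinf1, a secreted serpin (PEDF), had 39.2 and 37.3 in WT, 27.7 and 29.7 in OBF-1-/-, 277 and 213 in Aiolos-/- and 83.4 and 84 in double-mutant arrays. The rise of 2.67 in Aiolos-/- cells became a rise of 1.13 in the double mutant, and the interaction was -1.12 (standard error 0.17, adjusted p = 0.0235). The second Serpinf1 probe set had -0.58 (adjusted p = 0.214). Vsir, the checkpoint receptor VISTA, rose by 0.86 in OBF-1-/-, 0.51 in Aiolos-/- and 0.54 in double-mutant cells, with 136 and 134 in the last, an interaction of -0.82 (adjusted p = 0.0454). The other Vsir probe set, which showed no called change against WT, had -0.14 (adjusted p = 0.712).

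Members with an effect of both single deletions in the same direction were then taken by direction. Of the 40 members with falls of at least 0.5 in both single mutants, 37 had a positive interaction, that is a double-mutant fall smaller than the sum, with a median of 0.46, and 4 were called. That is 92.5% positive, against 60.8% of all members. Of the 29 members with rises of at least 0.5 in both, 19 had a positive interaction, that is a rise larger than the sum, with a median of 0.17, and 3 were called. That is 65.5% positive, near the share over all members. The median was 0.05 over all members and -0.033 over all probe sets tested, and 0.306% of the members were called. These are counts without a test, and the choice leans on the WT arrays, since the WT level enters both single changes and the interaction with opposite signs. The falling members included Gga2, a trafficking adaptor gene, with an interaction of 0.65, and Hsph1, a heat shock protein gene, with 1.20 (adjusted p = 0.184 and 0.247). The rising ones included Aqp1, a water channel gene, with -1.20 (adjusted p = 0.297).

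The surrogate light chain genes Igll1 and Vpreb1, which rose most in the double mutant in the plot of sums against double-mutant changes, showed almost no interaction on the log2 scale in their own probe sets. A probe set shared by Vpreb2 and Vpreb1 had a larger value of 0.64, given below. Igll1, which encodes lambda 5, had 327 and 281 in WT, 538 and 546 in OBF-1-/-, 3158 and 2819.9 in Aiolos-/- and 5904 and 5408 in double-mutant arrays. The level of no interaction was 5337, and the interaction 0.08 (standard error 0.15, adjusted p = 0.853). For Vpreb1 the double-mutant arrays had 3242 and 3478 against a level of no interaction of 3156, an interaction of 0.09 (standard error 0.14, adjusted p = 0.821). OBF-1 loss raised Igll1 by 0.84 with Aiolos and by 0.92 without, and Vpreb1 by 1.17 and 1.26.

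On the linear scale, where the single effects add in intensity units, the double-mutant levels were above the sum by 2429 units for Igll1 (standard error 275, adjusted p = 0.144) and 1713 for Vpreb1 (standard error 114, adjusted p = 0.0528). Neither gene was called on either scale. The fit on the linear scale had 0.786 degrees of freedom from the prior, against 7.69 on the log2 scale, which enlarges its p-values. A missing call there is thus no evidence that an excess was absent. All 30 called members had an interaction of the same sign on the linear scale. The probe set shared by Vpreb2 and Vpreb1 had a log2 interaction of 0.64 that did not pass (adjusted p = 0.149), and on the linear scale an excess of 1025 units that did (standard error 58.5, adjusted p = 0.036). Vpreb3, another member of the pre-B cell receptor list, fell from 5997 and 5822 in WT to 1108 and 1197 in OBF-1-/- arrays, had 6035 and 5798 in Aiolos-/- and 1759 and 1836 in double-mutant arrays. Its interaction of 0.64 did not pass (adjusted p = 0.103).

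Pou2af1 itself, the deleted gene, had 2761 and 2678 in WT, 241 and 236 in OBF-1-/-, 2434 and 2842 in Aiolos-/- and 170.1 and 273 in double-mutant arrays, an interaction of -0.10 (standard error 0.24, adjusted p = 0.894). The 4 arrays labelled with an OBF-1 deletion were thus all below the other 4. Myl4, an atrial myosin light chain, had -4.00 in OBF-1-/- and -4.16 in double-mutant cells, an interaction of 0.30 (adjusted p = 0.48). S100a10, an annexin partner gene, was instead lower without Aiolos, with -0.57 in Aiolos-/- and -0.49 in double-mutant cells, and had an interaction of 0.05 (adjusted p = 0.904). Ikzf3 was not matched to a probe set and is not analysed here.

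In the gene lists, taken with 1 probe set per gene, a called interaction was found only for Gsn among 5 gelsolin family members and for Ms4a1 among 6 markers of immature and mature B cells. Over all 6244 genes with a member probe set 18 were called in this way, 14 positive and 4 negative, and 3657 had a value above 0, with a median of 0.04. The gelsolin family had a median of 0.39 with 4 of 5 members above 0, among them Scin, the related severing protein scinderin, which rose to a mean of 119 in the double mutant from 27.2 in WT with an interaction of 0.67 (adjusted p = 0.278). Capg and Flii, also above 0, were instead lower in the double mutant than in WT, with means of 168 against 260 and 569 against 614. Their positive interactions of 0.39 and 0.30 mean a fall smaller than the sum of the single falls. Lef1, a Wnt pathway transcription factor of early B cells, had means of 35.9 in WT, 48.3 in OBF-1-/-, 65.6 in Aiolos-/- and 171 in double-mutant cells. Lef1 too was a member only through its double-mutant level. Its interaction of 0.95 was short of the threshold (adjusted p = 0.0636), as was the 1.00 of Lgr5 (adjusted p = 0.0743), and the list that holds Lef1 and Lgr5 had a median of 0.13. Ramp1, a receptor activity modifying protein gene, had 124 and 139.9 in WT, 215 and 263 in OBF-1-/-, 484 and 359.7 in Aiolos-/- and 1243 in both double-mutant arrays, an interaction of 0.73 that did not pass (adjusted p = 0.26).

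Among the lists of genes that act in pre-BII cells, the B cell receptor signalling genes had 10 of 15 values above 0 and a median of 0.10, the V(D)J recombination genes 4 of 8 and 0.02, and the B-lineage transcription factors 5 of 14 and -0.05. The highest value in the signalling list was 0.62, for the Src family kinase gene Fyn (adjusted p = 0.213). In the list of immature and mature B markers 3 of 6 members were above 0 and the median was 0.01, with Ltb, a lymphotoxin chain, at 0.53, the inhibitory receptor gene Cd22 at 0.46 and Cd40 at 0.12, none of which passed. Tnfrsf13c, the BAFF receptor, was lowest in the double mutant as Ms4a1 was, with means of 1532 in WT, 1129.9 in OBF-1-/-, 1352 in Aiolos-/- and 716 in double-mutant cells, but its interaction of -0.48 did not pass (adjusted p = 0.26). Cell cycle lists had medians of -0.0048 for G1/S genes, 0.05 for DNA replication and -0.11 for mitosis.

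The marker lists of other cell types differed in sign. Of 12 granulocyte and monocyte markers among the members 1 had a value above 0 (median -0.18), and of 5 erythroid markers none (median -0.50). Of 4 plasma cell markers 3 were above 0 (median 0.07), and the single stromal and endothelial member was at 0.30. The single T cell member and both members of the NK and dendritic cell and of the megakaryocyte and mast cell lists were below 0, with medians of -0.13, -0.10 and -0.58. Ermap, an erythroid membrane protein gene, had means of 78.1 in WT, 148 in OBF-1-/-, 129 in Aiolos-/- and 127 in double-mutant cells, with an interaction of -0.91 (adjusted p = 0.227). The summed erythroid intensity was 582 to 606 in WT, 754 to 1101 in OBF-1-/-, 636 to 815 in Aiolos-/- and 701 to 863 in double-mutant arrays. None of these markers was called, and whether cells of these types have a part in any interaction given above was not tested.

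**Figure D4:**
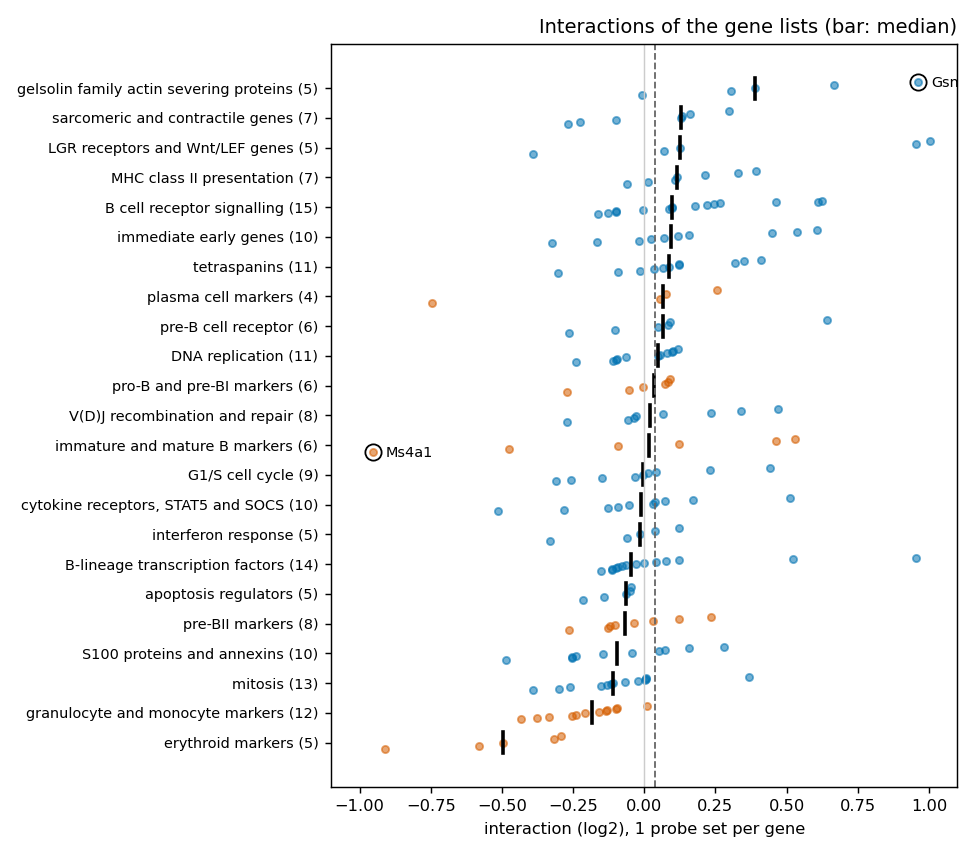
Interaction (log2) of each gene of the lists with at least 4 members (points, pathway lists in blue and cell type marker lists in orange), with the list median (bar) and the median over all 6244 genes (dashed line). The number of members stands beside each name; Gsn and Ms4a1, circled, are the called genes, and the granulocyte and erythroid lists lie to the left.

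The calls differed in how far they rested on single arrays. When each array was left out in turn, 7 of the 30 members were called all 8 times: Slc1a5, Irs1, Tmprss3, Car3, Iglv1 1427292_at, H1f2 1436994_a_at and Gsn 1437171_x_at. The other 23 lost the call without at least 1 array, with adjusted p of up to 0.215, and 6 of them, the probe sets of Vsir, Srfbp1, St3gal6, Utrn and Itgav and Tsc22d1 1425742_a_at, lost it in all 8 cases. Every value kept its sign. Without the sharing of variance information between probe sets, none of the 30 was called (smallest adjusted p = 0.218, limma) although 902 members had an unadjusted p under 0.05.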

How the data were processed

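The authors deposited 1 intensity per probe set and array, made with RMA (background correction, quantile normalization and summary of probes) per the labels, without a version, while the methods of the study name other software. The deposited intensities are linear and were taken to log2. Of 22690 probe sets the 64 controls were left out. Gene names came from the platform annotation, updated through RefSeq (20351 probe sets matched); 20380 probe sets had 1 symbol, 691 several and 1555 none. The 22626 probe sets were fitted with limma 3.58.1 in R 4.3.3, with a mean for each genotype and empirical Bayes moderation (7.69 degrees of freedom from the prior, 4 residual), and p-values were adjusted over all of them by the Benjamini-Hochberg method. Nothing says more of the replicates than that they were separate pools, and 2 arrays per genotype limit the precision. Arrays of a genotype correlated at 0.9961 to 0.9965.

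Per gene the member probe set with the highest mean log2 intensity was used. Named were up to 12 genes with the largest called interaction in each direction (filled up to 8 by the smallest p where fewer were called), up to 5 called genes per class, up to 8 members with opposite single effects and up to 8 with saturation of 2 effects, the genes that the study plots, and up to 4 of each list. The called probe sets of Iglv1, H1f2, Rapgef3, Serpinf1, Vsir and St3gal6, and Rag1, S100a9 and Cap1, were named after their values were seen. The members and the 28 lists were chosen with earlier results of these data known. The alternatives were no moderation, a trend and robust fit, other normalizations, a floor of 32, smaller sets of probe sets, a replicate block, other effect thresholds, the linear scale, and the omission of each array. Promoters of chromosome 18 were left out of the motif search, and with them that of the called gene Srfbp1. The called genes Slc1a5, Ms4a1, Car3, Iglv1 and Banp also had no promoter among those searched. The fit was tested on simulated data. Figures and small tables were made with Python 3.11.15, pandas 2.3.3 and numpy 2.4.6.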

Additional observations from a re-analysis of the deposited data

Results flagged for a closer look

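For 30 members the effect of OBF-1 loss in Aiolos-/- cells differed from its effect in cells with Aiolos by the limma test of the interaction itself. The log2 interactions of 1 or more were 2.14 for Slc1a5, 1.64 for Irs1, 1.50 for Iglv1, 1.48 for Enpep, 1.45 for Car3, 1.42 for Tmprss3, 1.27 for Gsn 1437171_x_at, 1.22 for H1f2, 1.08 for Rapgef3 1424471_at, 1.06 for Rasa4, 1.03 for Tsc22d1 1454971_x_at and 1.01 for Gsn 1436991_x_at. The other positive values were 0.96 for Gsn 1415812_at, 0.96 for Banp, 0.95 for Spg21, 0.93 for Tsc22d1 1454758_a_at, 0.92 for AU020206, 0.91 for Gsn 1456312_x_at, 0.89 for Rapgef3 1437012_x_at, 0.88 for St3gal6, 0.88 for Srfbp1, 0.86 for Utrn, 0.79 for Tsc22d1 1425742_a_at and 0.73 for Itgav. The negative values were -1.12 for Serpinf1, -0.95 for Ms4a1, -0.95 for Col5a3, -0.93 for Slfn2, -0.89 for Nsg2 and -0.82 for Vsir.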

How the results depend on the processing

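The 30 interactions called among the members (24 positive, 6 negative) became 0 without moderation of variances (0 positive, 0 negative; limma, 902 with an unadjusted p under 0.05), 6 with a floor of 32 (3 and 3, of which 1 was among the 30), 16 in a fit on probe sets at 100 in every genotype (12 positive, 16 among the 30), 12 on the linear scale (11 and 1, 6 among the 30), 13 with an interaction of at least 1 (12 and 1) and 18 with 1 probe set per gene (14 positive). With the floor of 32 the interactions of the 30 kept their values, except that of Serpinf1 (-1.28 instead of -1.12). The degrees of freedom from the prior fell in that fit to 0.386 from 7.69, which enlarges the p-values of all probe sets. On the linear scale they were 0.786. After a second quantile normalization 33 were called with 10 negative, which puts 69.7% of the calls on the positive side instead of 80%. A trend and robust fit called 45, a fit on members 32 and arrays centred on the median 32, with 30, 30 and 29 of the 30 among them. Replicate numbers were not used to pair the arrays, since the correlations of same-numbered deviations ran from -0.0659 to 0.187 and were not all above 0.1. Whether same-numbered arrays shared a batch was not tested. The fit with the replicate block called 36, 29 of the 30 among them, and lost Itgav (adjusted p = 0.0613, limma). Leaving out 1 array assumes that the array left alone varies like the others, and gave 7 (without OBF-1-/- replicate 1) to 24 (without Aiolos-/- replicate 2) interactions, 7 to 18 positive and 0 to 7 negative. It gave 8 without WT replicate 1, 9 without WT replicate 2, 15 without OBF-1-/- replicate 2, 14 without Aiolos-/- replicate 1, and 19 and 13 without double-mutant replicates 1 and 2. Changes against WT called among the members, which share the WT arrays, ran from 45 to 348 in Aiolos-/- (302 with all arrays, 3.08%), 152 to 361 in OBF-1-/- (361, 3.68%) and 749 to 1450 in double-mutant cells (1484, 15.1%), with the lowest values without a WT array, and OBF-1 loss in Aiolos-/- cells from 240 to 483 (509, 5.19%). The classes of called members ran from 1 to 8 for double mutant only, 2 to 6 for synergy, 2 to 7 for saturation, 0 to 8 for effects lost, 0 to 1 for small effects and for changes opposite to the sum, and stayed at 1 for opposite effects. An effect threshold of 0.3 gave 2 opposite, 0 small, 1 lost and 2 opposite to the sum, a threshold of 1 gave 0 opposite, 7 small and 0 synergy, and the linear scale 3 small and 1 lost. Except where stated, the cause was not tested. No named gene's called interaction changed sign. With 2 arrays per genotype the number of arrays limits what could be called.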
